A study of Mus musculus with 18 samples.

Results

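Libraries labelled as mouse esophageal tumor organoids carrying a guide RNA against Tgfbr2 were compared with others labelled as carrying a control guide, over all genes of 1 deposited count table. The 5 libraries are those whose titles name these tumor groups, out of 18 libraries in the series: 3 with the control guide (called sgScr here, as in the titles) and 2 with the Tgfbr2 guide (called sgTgfbr2). Organoids are cultures grown in a basement membrane gel from dissociated tissue. All 5 libraries were labelled as lacking Trp53 (Trp53-/-), overexpressing Myc (Myc OE) and carrying a Cdkn2a guide, so the controls share these 3 changes, and sgTgfbr2 was the 1 declared difference. The growth medium given for all samples held EGF, FGF10, Noggin, R-spondin, Wnt-3A conditioned medium and A83-01 at 2 µM, which blocks the type I receptor for TGF-beta. The sources used here give neither mouse strain and age, nor the number of clones and animals behind each group, nor the site of the Tgfbr2 guide. No label states that replicates were separate cultures or animals, so a p-value below measures the spread of these 5 libraries, and that spread may be technical.

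The mouse esophagus is lined by a stratified squamous epithelium. Its basal cells divide and carry keratins 5 and 14, the cells above them switch to keratins 4 and 13, and the surface layers crosslink proteins such as loricrin into a cornified envelope. Below the junction with the glandular stomach the lining becomes columnar, with mucous, acid-secreting, enzyme-secreting and hormone-secreting cells, and the wall of the mouse esophagus holds striated as well as smooth muscle. TGF-beta ligands bind the type II receptor, encoded by Tgfbr2, which recruits and activates the type I receptor, which in turn phosphorylates Smad2 and Smad3, and these enter the nucleus with Smad4.

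The stretches before the starts of 3 genes are shown because each gene stood among the most abundant of its kind on 1 side of the comparison. Krt13 (suprabasal keratin 13) and Acta1 (skeletal actin) were high in sgScr, and Pgc (the pepsinogen progastricsin) was high in sgTgfbr2. Each sequence is the 250 bases before the RefSeq start in GRCm38.p6, 5′ to 3′ on the gene's strand, with matches to the motifs searched in capitals. They lie at chr11:100121567-100121816 (Krt13, minus strand), chr17:47726592-47726841 (Pgc, plus strand) and chr8:123894776-123895025 (Acta1, minus strand).
Krt13: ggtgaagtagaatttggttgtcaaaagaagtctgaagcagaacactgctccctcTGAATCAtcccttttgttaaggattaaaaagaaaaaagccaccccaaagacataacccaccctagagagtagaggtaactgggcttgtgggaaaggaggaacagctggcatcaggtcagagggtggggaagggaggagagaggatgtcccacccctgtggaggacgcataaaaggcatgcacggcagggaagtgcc
Pgc: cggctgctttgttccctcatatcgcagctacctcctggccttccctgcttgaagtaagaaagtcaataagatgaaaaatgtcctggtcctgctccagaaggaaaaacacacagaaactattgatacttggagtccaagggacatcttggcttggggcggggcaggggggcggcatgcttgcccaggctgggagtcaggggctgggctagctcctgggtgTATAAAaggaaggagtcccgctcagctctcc
Acta1: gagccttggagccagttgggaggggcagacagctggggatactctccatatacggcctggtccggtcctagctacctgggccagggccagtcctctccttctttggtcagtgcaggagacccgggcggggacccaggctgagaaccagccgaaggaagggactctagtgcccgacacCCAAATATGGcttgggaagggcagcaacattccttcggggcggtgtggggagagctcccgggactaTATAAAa
The capitals mark an AP-1 site (TGANTCA) in Krt13, a TATA box (TATAAA) in Pgc, and a CArG box and a TATA box in Acta1. Motifs were searched on both strands, and those shown do not overlap each other. Over all 27025 promoters of this length, 6.853% held the AP-1 site, 12.98% the TATA box and 1.406% the CArG box. Of 43 cornified envelope promoters matched by symbol, 12 (27.91%) held the AP-1 site and 18 (41.86%) the TATA box. That list holds the Lce and Sprr2 families of near-identical copies, so its promoters are not independent. The TATA box was in 2 of 8 chief cell, 3 of 13 mucous pit and neck and 3 of 13 fast skeletal fibre promoters. Of the 13 mucous promoters, 2 held the AP-1 site, and each of these 2 motifs was in 1 of 19 smooth muscle promoters. Of 13 fast skeletal fibre promoters matched (20 genes listed), 4 (30.77%) held a MEF2 site, against 3.027% of all. The CArG box was in 1 of these 13 and in 0 of 19 smooth muscle promoters, and the AP-1 site was in 1 of the 13 and in 0 of 8 chief cell promoters. These matches describe letters in a window and show no binding. The genes themselves are annotated in GENCODE M21 (GRCm38) on chromosome 11 at 100117327 to 100121566 (Krt13), chromosome 17 at 47726842 to 47734482 (Pgc) and chromosome 8 at 123891769 to 123894751 (Acta1).

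Each of the 5 libraries held 16837439 to 21578811 counts over 15936 to 16713 detected genes. Of 24421 genes in the table, 15091 passed the filter on low counts, and 9095 of these (60.3%) passed an adjusted p of 0.05 by edgeR's quasi-likelihood test with Benjamini-Hochberg adjustment. Higher in sgTgfbr2 were 4492 genes (29.8% of those tested) and lower were 4603 (30.5%), and the counts of list members below are to be read against these shares. Scaling to the library total in place of TMM (a scaling that sets the bulk of genes level between libraries) gave 6046 higher and 3362 lower, and moved the median log2 fold change of all genes from -0.02 to 0.26. The authors' deposited table holds 4299 higher and 4534 lower genes past the same threshold, and 8620 genes were called in the same direction by both. "Rose" and "fell" below mean higher or lower in sgTgfbr2 than in sgScr past this threshold. Leaving out each library in turn gave 3960 to 4335 higher and 4054 to 4382 lower. Asking also for a log2 fold change of at least 1 left 2499 higher (16.6%) and 2927 lower (19.4%). Groups that did not overlap were common. On the TMM scale, both sgTgfbr2 libraries lay above every sgScr library for 5436 of the 15091 genes tested, and below for 5535. Statements below that groups did not overlap are to be read against these counts.

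The targeted gene and the other engineered loci were read first, as a check of the labels. Normalised CPM here are counts relative to the TMM-scaled library size (CPM), given as sgScr replicates 1 to 3 and then sgTgfbr2 replicates 1 and 2 (n = 3 and n = 2 throughout). A value with an error in parentheses is the log2 fold change of sgTgfbr2 over sgScr ± its SE. Tgfbr2, on chromosome 9 at 116084293 to 116175360 of GRCm38, stood at 129, 123 and 138 normalised CPM in the sgScr libraries and 61.2 and 61.9 in the sgTgfbr2 libraries. The 2 groups did not overlap, with a log2 fold change of -1.08 ± 0.13 (SE, edgeR adjusted p = 4.19e-07), and its transcripts were present in all 5 libraries. Trp53, the tumor suppressor that all libraries were labelled to lack, gave 56.3, 50.3 and 52.0 against 24.3 and 19.9 normalised CPM. It fell by edgeR (log2 fold change -1.26 ± 0.16, adjusted p = 6.69e-07). Cdkn2a, the cell cycle inhibitor locus that both groups carry a guide against, stood at 0.567, 1.23 and 0 normalised CPM in the sgScr libraries and 153 and 118 in the sgTgfbr2 libraries, so that it was near the detection floor on the control side only (log2 fold change 7.72 ± 0.33). Its neighbour Cdkn2b rose (log2 fold change 2.93 ± 0.20). Myc, declared overexpressed in both, gave 48.3, 46.2 and 50.8 against 47.0 and 81.1 normalised CPM and did not pass the threshold (edgeR adjusted p = 0.0543). It passed without sgTgfbr2 replicate 1 (log2 fold change 0.74), whose value lay within the sgScr range, and with library totals (0.70). Without the filter on low counts Myc passed as well (0.40). A count per gene shows neither an edited allele nor a protein.

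The 2 sides differed in which cell type markers filled their RNA. The labels describe organoid cultures, and all 5 libraries also held transcripts of muscle, vessel and immune cells, at the levels given below. Whether they were made from cultures or from tumor tissue was not tested. The squamous gene lists together (154 genes in the table) took up 22.9, 22.1 and 21.5% of all counts in the sgScr libraries and 4.47 and 4.43% in the sgTgfbr2 libraries. The glandular lists (202 genes) took 0.241, 0.242 and 0.252% against 6.41 and 5.90%. The muscle lists (117 genes) took 3.76, 3.84 and 3.69% against 0.409 and 0.396%. The stromal and immune lists (232 genes) took 1.36, 1.30 and 1.30% against 1.92 and 1.92%, and this last difference turned over without lactotransferrin (Ltf), a secreted iron-binding protein that both neutrophils and glands make. In bulk RNA, fewer cells of a type and less RNA per cell cannot be told apart.

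**Figure D1:**
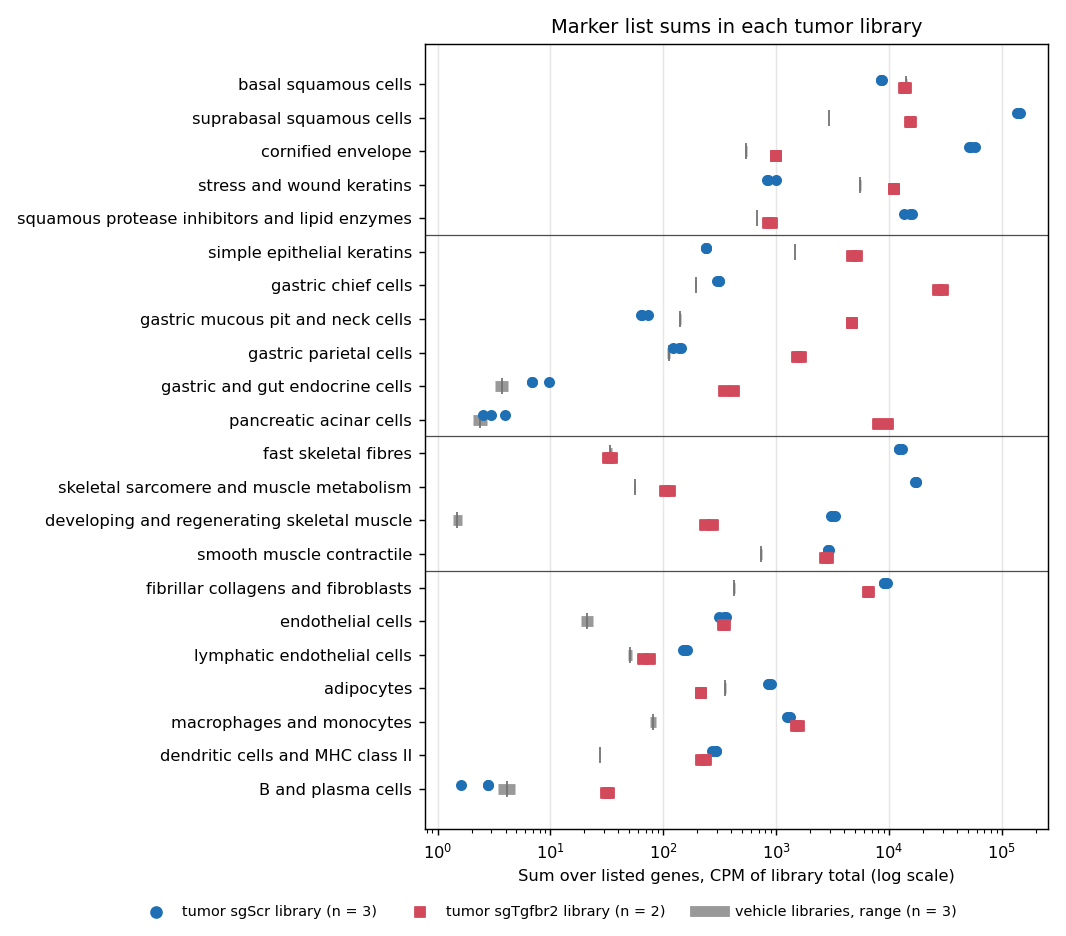
Summed level of 22 marker lists in each tumor library, in CPM of the library total on a log axis. Circles are the 3 sgScr libraries, squares the 2 sgTgfbr2 libraries and grey bars the range of 3 vehicle-treated tumor libraries from another table. Suprabasal, cornified and skeletal muscle sums lay far higher in sgScr and the 4 gastric lists far higher in sgTgfbr2. The endothelial sums lay close together, as did the smooth muscle sums with the gene Tpm2 included. Without Tpm2 the smooth muscle sums were higher in sgTgfbr2.

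Suprabasal squamous genes were lower in sgTgfbr2. Of 22 suprabasal genes, all tested, 2 rose and 20 fell, with a median log2 fold change of -2.82 against -0.02 over all genes. Krt4, the partner of Krt13 in suprabasal esophageal cells, stood at 71797, 70614 and 65671 normalised CPM in the sgScr libraries and 3617 and 3463 in the sgTgfbr2 libraries (log2 fold change -4.29 ± 0.15, edgeR adjusted p = 1.10e-16). Krt13 stood at 61565, 62046 and 58486 normalised CPM in the sgScr libraries and 7041 and 6642 in the sgTgfbr2 libraries (log2 fold change -3.15 ± 0.14, adjusted p = 8.99e-15). Both were lower in sgTgfbr2 and still among its abundant transcripts. Per length, Krt13 was at 73326 TPM (counts scaled by exon length and library) in sgScr and 11281 in sgTgfbr2, and Krt4 at 71530.5 and 4986. Krtdap, a secreted keratinocyte differentiation protein, fell further, from 6109.7, 7819 and 6818 to 21.2 and 22 normalised CPM (log2 fold change -8.32 ± 0.20). The desmosomal plaque protein periplakin, Ppl, fell less, by a log2 fold change of -1.63 ± 0.14. Calml3, a calmodulin-like protein of epithelia (-2.11 ± 0.13), and Dmkn (-3.62 ± 0.15) lay between these. The 2 members that rose were Mal, a membrane traffic protein of apical surfaces (6.91, 7.48 and 6.87 against 679 and 681 normalised CPM, log2 fold change 6.58 ± 0.15), and involucrin, Ivl (3.40, 3.84 and 4.58 against 8.46 and 8.85, 1.14 ± 0.28).

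Cornified envelope genes were far lower in sgTgfbr2, with sums of 58309.7, 53392 and 51217 CPM in sgScr and 995 and 999 CPM in sgTgfbr2 of the library total. Of 45 in the table, 40 were tested, of which 3 rose and 35 fell, and 24 of the 45 had no count in either sgTgfbr2 library, among them 2 without a count in any of the 5. The median log2 fold change was -9.86, or -9.78 with genes uncounted in 1 group set at their bound. Loricrin, Lor, the main envelope protein, stood at 12173, 9018 and 6882 normalised CPM in the sgScr libraries and 3.35 and 2.58 in the sgTgfbr2 libraries (log2 fold change -11.62 ± 0.30, edgeR adjusted p = 6.81e-19). Its 3 sgScr values spread more widely than those of the keratins, and all lay far above the sgTgfbr2 values. Repetin, Rptn, gave 7170.0, 7882 and 8387 against 42.0 and 63.1 normalised CPM, the protease Asprv1 gave 6775, 6598 and 5715 against 13.4 and 13, and the crosslinking transglutaminase Tgm3 gave 4864, 4652 and 4864 against 88.8 and 103. Each of these 3 fell, with log2 fold changes of -7.21 ± 0.21, -8.91 ± 0.19 and -5.64 ± 0.16. Hornerin, Hrnr, had no count in sgTgfbr2 and was at least 10972-fold lower, with 3 counts over the group taken as the floor. The transglutaminase Tgm1, known from deeper spinous layers as well, was among the 3 that rose (295, 267 and 259.7 against 359 and 335, log2 fold change 0.34 ± 0.12), with trichohyalin, Tchh (2.32 ± 0.22), and Sprr2d (4.64 ± 0.34). The Tgm1 call was lost without sgScr replicate 2 (0.32), sgScr replicate 3 (0.30) or sgTgfbr2 replicate 1 (0.29). The Lce and Sprr2 genes belong to families of near-identical copies, so how counts divide among them is uncertain.

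Protease inhibitors and lipid enzymes of the squamous surface followed the same direction, where 1 rose and 20 fell of 22 tested (24 in the table), with a median log2 fold change of -4.97. Serpinb12 gave 4980.0, 5857 and 5741 against 0.345 and 0.0972 normalised CPM (log2 fold change -14.57 ± 0.29, edgeR adjusted p = 2.78e-20). Elovl4, which makes the very long fatty acids of barrier lipids, gave 533, 639 and 666 against 2.41 and 3.11 (-7.79 ± 0.21). Alox12b, a lipoxygenase of the same barrier, had no count in sgTgfbr2 (at least 8094-fold lower). Serpinb5, or maspin, fell less (409, 532 and 565 against 186 and 200.4, -1.38 ± 0.15), and the cysteine protease inhibitor Cstb was the 1 member that rose (1.19 ± 0.14).

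Basal genes and stress keratins went the other way in part. Of 18 basal genes, all tested, 10 rose and 7 fell, with a median log2 fold change of 0.70. Krt14 stood at 1269, 1232 and 1065 normalised CPM in the sgScr libraries and 5391 and 4619 in the sgTgfbr2 libraries (log2 fold change 2.07 ± 0.13, edgeR adjusted p = 4.37e-12) and Krt5 at 1559, 1450.0 and 1339 against 3994 and 3803 (1.43 ± 0.12, adjusted p = 1.22e-09). The laminin chains Lama3 and Lamb3 and the integrins Itga6 and Itgb4, which anchor basal cells to the basement membrane, rose, Itga6 by a log2 fold change of 1.22 ± 0.14. Krt15, a keratin of basal and quiescent cells, fell from 652, 666 and 568 to 108 and 89.4 normalised CPM (-2.67 ± 0.15), and the desmosomal cadherin Dsg3 fell less (-0.69 ± 0.17). Trp63, the transcription factor that maintains stratified epithelia, fell by a small amount, at 166, 173 and 194 against 137 and 137 normalised CPM (log2 fold change -0.37 ± 0.13, adjusted p = 0.0164). With library totals the calls of Trp63 (-0.09) and Dsg3 (-0.39) were lost. The Trp63 call was also lost without sgScr replicate 3 (-0.31) or either sgTgfbr2 library (-0.38 each), and the Dsg3 call without sgTgfbr2 replicate 1 (-0.36). All 4 stress and wound keratins rose. Krt6a stood at 446, 389.7 and 382 normalised CPM in the sgScr libraries and 7607 and 7465 in the sgTgfbr2 libraries (4.21 ± 0.13) and Krt16 at 5.44, 3.33 and 3.88 against 252 and 229.8 (5.84 ± 0.18). Krt6b, a near-identical copy of Krt6a whose separate count is uncertain, moved less, at 624, 525 and 521 against 748 and 804 (0.48 ± 0.13). In CPM of the library total, the basal list summed to 8605, 8459.6 and 8447 CPM in sgScr and 14214 and 13599 CPM in sgTgfbr2.

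Squamous transcription factors were divided, with 6 rising and 12 falling of 21 tested (22 in the table) and a median log2 fold change of -0.43. Pitx1, a homeodomain factor of oral and esophageal epithelium, rose from 236, 179 and 173 to 409 and 344 normalised CPM (0.94 ± 0.14). Klf4 (-0.57 ± 0.13), Zfp750 (-0.63 ± 0.13) and Hopx (-0.43 ± 0.13), all known from differentiating squamous cells, fell by small amounts. With library totals Klf4 (-0.29) and Hopx (-0.14) did not pass, and Hopx did not without sgScr replicate 2 (-0.34) or sgTgfbr2 replicate 2 (-0.33). Larger falls were seen for Pax9 (123, 98.9 and 119.7 against 11.4 and 18.4, -2.93 ± 0.19), which is needed for esophageal differentiation, Barx2 (-2.65 ± 0.16), Ovol1 (-2.74 ± 0.15) and Grhl3 (-2.01 ± 0.14). Barx1, a homeobox gene known from stomach mesenchyme, was the member with the largest rise among those counted in all 5 libraries, at 1.70, 1.59 and 1.72 normalised CPM in the sgScr libraries and 42.6 and 39.5 in the sgTgfbr2 libraries (4.62 ± 0.22). Sox2, which marks foregut epithelium, rose slightly (44.0, 34.4 and 42.6 against 59.99 and 61.9, 0.60 ± 0.15). Hair and nail keratins were scarce, with 20 in the table and 7 tested, of which 2 rose and 3 fell (1 fell without sgScr replicate 2 or with library totals, and 1 rose without sgScr replicate 1, sgScr replicate 2 or sgTgfbr2 replicate 2). Krt83 was without a count in sgScr and at 14.3 and 13.9 normalised CPM in sgTgfbr2 (at least 248-fold higher).

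Most glandular genes tested were higher in sgTgfbr2. Over all glandular lists, 110 genes rose and 15 fell of 137 tested (202 in the table), with a median log2 fold change of 4.68 (4.47 at the bounds). The others had too few counts to test, and 31 genes had none in any of the 5 libraries. In sgScr 66 had no count, while others, such as Xbp1, Krt23 and Cdh1 (values below), were well above the floor there. Of 6 simple epithelial keratins, which columnar cells use in place of stratified keratins, 5 rose. Krt7 stood at 0.453, 0.564 and 1.59 normalised CPM in the sgScr libraries and 2366 and 1991 in the sgTgfbr2 libraries (log2 fold change 11.33 ± 0.25, edgeR adjusted p = 1.07e-19), Krt8 at 0.907, 0.871 and 1.02 against 319 and 297 (8.37 ± 0.18) and Krt18, the partner of Krt8, at 1.76, 1.18 and 1.46 against 395 and 358 (8.01 ± 0.18). Krt23 fell (249, 257 and 248 against 113 and 108, -1.19 ± 0.13).

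Genes of all 4 gastric cell types named here were present in both sgTgfbr2 libraries. Of the mucous pit and neck genes, all 21 tested, 18 rose and 1 fell, with a median log2 fold change of 9.07 (8.44 at the bounds). Muc5ac, the gel-forming mucin of pit cells, had no count in sgScr and stood at 290.3 and 315 normalised CPM in sgTgfbr2 (at least 5333-fold higher). Muc6, the mucin of neck and pyloric gland cells, gave 0.227, 0 and 0 against 101 and 181 (log2 fold change 10.74 ± 0.39), and the membrane mucin Muc1 gave 0.907, 0.769 and 1.27 against 158 and 147 (7.29 ± 0.20). Of the chief cell genes, 5 rose and 1 fell of 8 tested (9 in the table). Pgc made up 89.4 to 90.5% of that list's sum in sgTgfbr2 and stood per length at 49162 TPM, above Clps at 26902. The chitinase Chia1 gave 0.113, 0.154 and 0 against 1715 and 1615 normalised CPM (14.01 ± 0.25). Rab3d, a secretory vesicle GTPase of chief and other cells, gave 213, 184 and 175 against 171 and 183 and did not pass (adjusted p = 0.519 by edgeR), and Nucb2 fell (-3.18 ± 0.17).

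Of the parietal cell genes, 10 rose and 2 fell of 14 tested (15 in the table), with a median log2 fold change of 3.65. The 2 subunits of the acid pump stood at 0.227, 0.717 and 0 normalised CPM in the sgScr libraries and 556 and 628 in the sgTgfbr2 libraries (Atp4a, 10.74 ± 0.29) and at 0, 0 and 0.127 against 228 and 208 (Atp4b). With 2 counts over the sgScr libraries, Atp4b was 5762-fold higher (95% counting interval 1595 to 47581). Carbonic anhydrase 2, Car2, which supplies protons, rose from 3.68, 3.64 and 4.58 to 238 and 232 (5.89 ± 0.16), and the nuclear receptor Esrrg rose from 1.93, 1.54 and 2.42 to 39.1 and 53.2 (4.57 ± 0.23). Of the endocrine genes, 11 rose and 1 fell of 13 tested (18 in the table; 0 fell without sgScr replicate 1 or sgTgfbr2 replicate 1 or with library totals), with a median of 4.69 (4.0 at the bounds). Ghrelin, Ghrl, stood at 1.13, 0.256 and 0.0636 normalised CPM in the sgScr libraries and 175 and 133 in the sgTgfbr2 libraries (8.27 ± 0.32). Somatostatin, Sst, was without a count in sgScr and at 92.1 and 71.3 in sgTgfbr2 (at least 1439-fold higher), and chromogranin A, Chga, of hormone granules was at 0.0567, 0 and 0 and then 75.9 and 55.8. With 1 count over the sgScr libraries, Chga was 3480.2-fold higher (95% counting interval 625 to 137462). The antral hormone gastrin, Gast, was also among the 11 that rose. It was far scarcer than these in sgTgfbr2, at 2.36 and 3.26 normalised CPM.

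Pancreas and intestine lists were not filled in the same way. The pancreatic acinar list held 29 genes, of which 12 were tested and 10 rose, and its sum in sgTgfbr2 was 99.3 to 99.4% colipase (Clps) and phospholipase A2 group IB (Pla2g1b). Without these 2 genes it summed to 56.3 to 59.8 CPM of the library total in sgTgfbr2 and 2.55 to 3.80 in sgScr. The elastase Cela1 was at 22.2 and 18.1 normalised CPM and the lipase-related Pnliprp2 at 13 and 12.0 in sgTgfbr2. Defining acinar genes, Cpa1, Prss1, Pnlip and Ctrc, had no count in any of the 5 libraries. Of 27 intestinal genes, 15 were tested, 13 rose and 2 fell (1 without sgScr replicate 3 or sgTgfbr2 replicate 1). The aminopeptidase Anpep was highest at 23.2, 19.9 and 21.1 against 90.3 and 93.0 (2.1 ± 0.15), and the intestinal master genes Cdx1 and Cdx2 had no count in any library. Of the salivary and mammary lists, 10 of 22 and 6 of 10 genes had no count in any of the 5 libraries. Ltf made up 99 to 99.1% of the salivary sum in sgTgfbr2, where it stood at 6914 and 6776 normalised CPM against 0.170, 0.666 and 0.700 in sgScr (13.69 ± 0.24).

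Transcription factors and junction genes of columnar cells rose with the gland products. Of 22 columnar factors tested (27 in the table), 19 rose and 2 fell, with a median log2 fold change of 4.06. Foxa1, a pioneer factor of endoderm, stood at 5.33, 6.10 and 8.21 normalised CPM in the sgScr libraries and 109.6 and 123 in the sgTgfbr2 libraries (4.15 ± 0.18, edgeR adjusted p = 4.62e-15), and the epithelial factor Elf3 at 19.3, 20.7 and 18.6 against 325 and 286 (3.97 ± 0.14). Gata4, which patterns the glandular stomach, gave 0.340, 0.0512 and 0.445 against 44.0 and 51.8 (7.46 ± 0.32). Hnf4a had no count in sgScr and 15.2 and 20.4 normalised CPM in sgTgfbr2 (at least 314-fold higher). Pdx1, a factor of antrum, duodenum and pancreas, was counted in 1 sgTgfbr2 library only, at 0.486 normalised CPM, and was too scarce to test. Xbp1, which expands the secretory apparatus, fell (269, 283 and 299 against 142 and 134, -1.04 ± 0.13), as did Ehf (-0.53 ± 0.13), whose call was lost with library totals (-0.24). Of 18 junction and surface genes tested (20 in the table), 15 rose and 1 fell (0 without sgScr replicate 1, 2 without sgTgfbr2 replicate 2). Claudin 18, Cldn18, the tight junction protein of stomach, was without a count in sgScr and at 87.2 and 81.2 in sgTgfbr2 (at least 1484-fold higher), while E-cadherin, Cdh1, shared by squamous and columnar cells, differed little (213, 204 and 217 against 338 and 347, 0.70 ± 0.12).

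**Figure D2:**
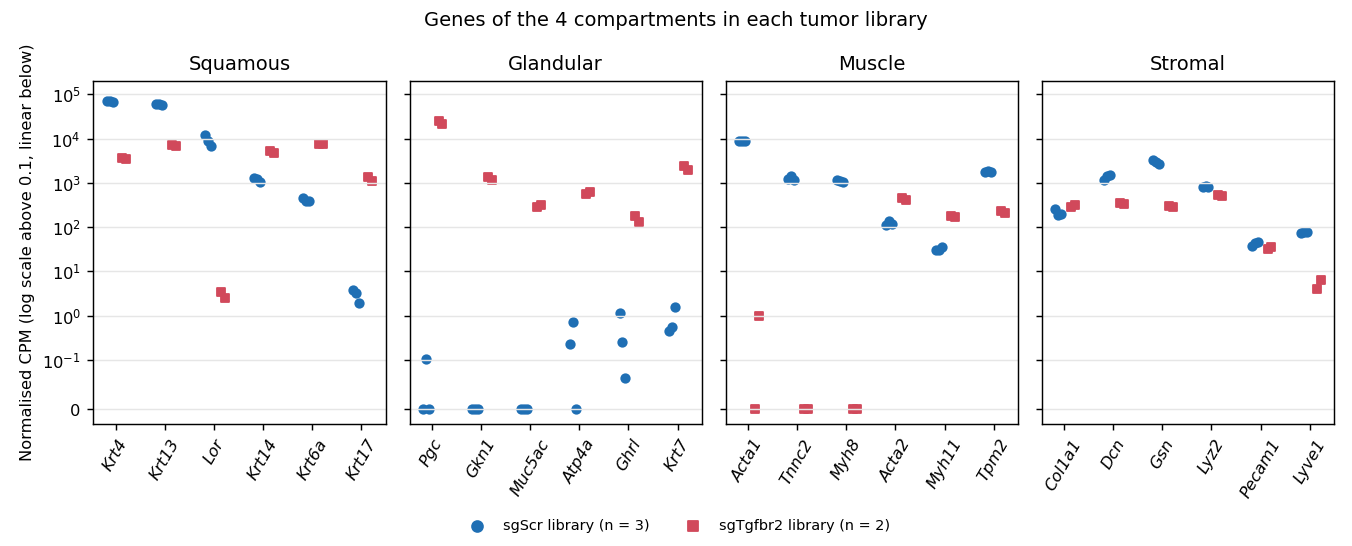
Normalised CPM of 24 genes, 6 for each compartment, in the 3 sgScr libraries (circles) and the 2 sgTgfbr2 libraries (squares). The axis is logarithmic above 0.1 and linear below it, so that libraries without a count appear at 0. Krt4 and Krt13 fell but stayed high in sgTgfbr2 (3617 and 3463 for Krt4), while Tnnc2 and Myh8 had no count there and Gkn1 and Muc5ac had none in sgScr.

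Skeletal muscle transcripts were abundant in sgScr and scarce in sgTgfbr2. All 20 fast fibre genes fell, with a median log2 fold change of -10.32 (-9.24 at the bounds), and 37 of 38 genes of sarcomeres and muscle metabolism fell, with a median of -10.01 (-9.40). Fbxo32, a ubiquitin ligase that other cells make as well, was the member that did not pass (62.3, 59.3 and 57.6 against 66.4 and 68.5 normalised CPM), though it did with library totals (0.46). The fast light chain Mylpf stood at 2449, 2953 and 2699.9 normalised CPM in the sgScr libraries and 0.984 and 0.486 in the sgTgfbr2 libraries (-11.83 ± 0.26, edgeR adjusted p = 8.54e-20). The fast troponins Tnni2 and Tnnt3 gave 1818, 2003 and 1705 against 15.2 and 13 and 1707, 1979.9 and 1819.6 against 0.345 and 0.243 normalised CPM. Myoglobin, Mb, the oxygen store of muscle, gave 2559, 2698 and 2246 against 0.787 and 1.264 (-11.24 ± 0.24), muscle creatine kinase, Ckm, gave 1932, 1897 and 1808 against 0.295 and 0.875 (-11.63 ± 0.27), and titin, Ttn, gave 334, 358 and 412 against 0.443 and 0.632 (-9.40 ± 0.24). No sgScr library overlapped an sgTgfbr2 library for any of these. Acta1, at 8709, 8976 and 8725 against 0 and 0.972, was per length at 12611 TPM in sgScr.

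Markers of muscle development were part of the sgScr side. Of 15 tested genes of developing and regenerating muscle (16 in the table), 14 fell and 11 of the 16 had no count in sgTgfbr2, with a median log2 fold change of -8.33 (-5.17 at the bounds). Perinatal myosin, Myh8, stood at 1151, 1085 and 1051 normalised CPM in sgScr, and cardiac actin, Actc1, which embryonic and regenerating skeletal fibres also make, at 342, 382 and 363 (at least 4947-fold lower). The myogenic factors were lower in level, with Myod1 at 5.38, 4.51 and 2.86, Myog at 4.70, 6.81 and 3.43, Myf5 at 1.81, 2.36 and 3.94 and Pax7, which marks satellite cells, at 0.737, 0.666 and 0.0636, and none of the 4 had a count in sgTgfbr2. Myf6, the factor of mature fibres, was at 41.7, 42.6 and 39.3 against 0.345 and 0 (-7.86 ± 0.39). Embryonic myosin, Myh3, was at 0.340, 0.564 and 0.509 in sgScr. Of the slow and cardiac genes, 5 rose and 9 fell of 15 tested (20 in the table). Slow-type Myl3 (909, 953 and 831 in sgScr, at least 12299-fold lower) and Mybpc1 (349, 372 and 396 against 0.197 and 0, -11.80 ± 0.32) fell, while Atp2a2 (0.44 ± 0.12) and Tpm3 (1.64 ± 0.12), which non-muscle cells also make, rose. The Atp2a2 call was lost without sgTgfbr2 replicate 2 (0.34). Cardiac troponin I, Tnni3, rose from 0.340, 0.102 and 0.127 to 25.6 and 19.2 (6.84 ± 0.37). Myosin heavy chains share long stretches of sequence, and their separate counts are uncertain.

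Smooth muscle did not follow skeletal muscle. Of 22 smooth muscle genes tested (24 in the table), 11 rose and 6 fell, with a median log2 fold change of 0.98. Smooth muscle actin, Acta2, stood at 114, 136 and 118 normalised CPM in the sgScr libraries and 464 and 419 in the sgTgfbr2 libraries (1.85 ± 0.13, edgeR adjusted p = 3.31e-11), transgelin, Tagln, at 138, 143 and 127 against 533 and 438 (1.84 ± 0.13) and smooth muscle myosin, Myh11, at 31.2, 30.9 and 35.7 against 175 and 169 (2.40 ± 0.13). All 3 were higher in both sgTgfbr2 libraries than in any sgScr library. The members that fell furthest were Tpm2 (1755, 1899.6 and 1769 against 238 and 207, -3.03 ± 0.14) and the small heat shock protein Hspb6 (363, 327 and 339.9 against 14.8 and 9.87, -4.80 ± 0.18), both of which skeletal muscle also makes. The list summed to 2906, 2919 and 2865 CPM in sgScr and 2873 and 2682 CPM in sgTgfbr2 of the library total. Without Tpm2, its highest gene, it summed to 1271, 1201 and 1213 CPM in sgScr and 2612 and 2444 CPM in sgTgfbr2. The fast fibre list summed to 12151, 13048 and 12155 CPM in sgScr and 35.0 and 32.2 CPM in sgTgfbr2.

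Fibroblast genes fell more often than they rose. Of 35, all tested, 7 rose and 18 fell, with a median log2 fold change of -0.32, and the sums were 9518, 8934 and 8945 CPM in sgScr and 6447 and 6611 CPM in sgTgfbr2 of the library total. Gelsolin, Gsn, an actin-severing protein also made by muscle, was highest and fell from 3299, 2981 and 2667 to 303 and 279 normalised CPM (-3.36 ± 0.15). Without Gsn, the list sums were 6445, 6238 and 6455 CPM in sgScr and 6114 and 6291 CPM in sgTgfbr2, and the groups overlapped. Decorin, Dcn, a proteoglycan of connective tissue, fell from 1156, 1431 and 1494 to 353 and 336 (-1.98 ± 0.14, edgeR adjusted p = 6.39e-11). Fibrillar collagens were closer, with Col3a1 at 1020.0, 969.8 and 906 against 789.6 and 775 (-0.30 ± 0.12), Col1a2 at 337, 314 and 276 against 468 and 428 (0.54 ± 0.13) and Col1a1 at 259.6, 189 and 197 against 283 and 315 (0.48 ± 0.14). The Col1a1 and Col1a2 groups did not overlap. The Col1a1 call was lost without sgScr replicate 2 (0.39). The Col3a1 call was lost with any library left out (-0.27 to -0.35) and with library totals (-0.02). The matrix proteins Sparc (445, 410.2 and 421 against 912 and 896, 1.09 ± 0.12) and biglycan, Bgn (0.74 ± 0.12), rose, as did the collagen crosslinking enzyme Lox (30.5, 34.1 and 32.1 against 194 and 205, 2.63 ± 0.13) and Col12a1 (2.75 ± 0.15). Markers of resting adventitial fibroblasts, Dpt (448, 449 and 409.6 against 59.0 and 55.5, -2.93 ± 0.14), Pi16 (-1.71 ± 0.14) and Clec3b (-4.84 ± 0.18), fell. Scaling bears on this group: with library totals the stromal lists together had 64 genes higher and 64 lower, against 53 and 77 of 189 tested (232 in the table) with TMM, and 12 fibroblast genes were higher in place of 7.

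Vessel markers were alike in sum and uneven by gene. Of 20 endothelial genes, 2 rose and 9 fell, with a median of -0.44 and sums of 357, 310.4 and 345 CPM in sgScr and 351 and 335 CPM in sgTgfbr2. Pecam1, the junction protein of all endothelium, gave 38.1, 45.0 and 45.4 against 32.1 and 36.6 normalised CPM and did not pass (log2 fold change -0.32 ± 0.16, edgeR adjusted p = 0.0837), though it did without sgScr replicate 1 (-0.40). Plvap, of fenestrated vessels, rose (45.6, 37.3 and 41.1 against 81.4 and 64.8, 0.82 ± 0.15) and Vwf fell (43.2, 27.6 and 36.9 against 16.9 and 18, -1.04 ± 0.19). Of 6 lymphatic genes tested (7 in the table), 4 fell, with Lyve1 at 72.8, 79.5 and 76.3 normalised CPM in the sgScr libraries and 4.04 and 6.32 in the sgTgfbr2 libraries (-3.88 ± 0.20), Mmrn1 at 35.4, 31.5 and 39.9 against 5.61 and 3.06 (-3.04 ± 0.24) and the receptor Flt4 at 17.2, 11.8 and 11.8 against 2.95 and 3.35 (-2.11 ± 0.28). Podoplanin, Pdpn, also made by basal keratinocytes and fibroblasts, rose (0.78 ± 0.16). Of 16 adipocyte genes tested (18 in the table), 12 fell and 2 rose, with a median of -2.68. Defining adipocyte markers were low throughout: Adipoq stood at 2.1, 1.33 and 2.1 against 0 and 0.0972 normalised CPM, and leptin had no count. The sum was led by Dgat2 (482, 429 and 391 against 21.3 and 27.3, -4.16 ± 0.17), a triglyceride enzyme not restricted to fat cells. Of 8 pericyte genes, 2 rose (1 without sgScr replicate 2 or sgTgfbr2 replicate 1) and 2 fell.

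Immune markers differed by cell type. Of 20 macrophage genes, 8 rose and 5 fell, with a median log2 fold change of 0.03. Lysozyme, Lyz2, fell (801, 844 and 801 against 527 and 498, -0.67 ± 0.12, edgeR adjusted p = 7.79e-05), complement C1qb rose (68.9, 67.2 and 59.0 against 101 and 79.0, 0.47 ± 0.14), C1qc did not pass (84.2, 75.0 and 55.8 against 79.5 and 58.2), and Cd14, a co-receptor for lipopolysaccharide, rose from 20.6, 23.2 and 18.5 to 242 and 231 (3.51 ± 0.14). The C1qb call was lost without sgTgfbr2 replicate 1 (0.28). With library totals 3 macrophage genes were lower in place of 5. Of 15 neutrophil genes tested (17 in the table), 8 rose and 2 fell. Ltf made up 95.8 to 95.9% of that sum in sgTgfbr2, and without it the sum was 334 to 337 CPM against 476 to 615 in sgScr. S100a8 (121, 179 and 143 against 59.99 and 53, -1.39 ± 0.16) and S100a9 (314, 405 and 358 against 89.3 and 85.8, -2.04 ± 0.14), which keratinocytes also make, fell. The receptor Csf3r rose from 1.59, 2.31 and 1.84 to 13.9 and 15.6 (2.94 ± 0.28). Of 9 B and plasma cell genes tested (13 in the table), 8 rose at low levels, the joining chain Jchain of secreted antibodies from 0.453, 0.461 and 0 to 13.6 and 11.9 (5.30 ± 0.46). Of 13 MHC class II and dendritic genes tested (16 in the table), 8 fell and 1 rose, H2-Aa at 96.8, 109 and 103 against 58.0 and 65.5 (-0.74 ± 0.14). Without sgTgfbr2 replicate 2, 5 fell, and the 1 that rose did not pass without that library, without any 1 sgScr library or by DESeq2. T and NK cell genes were scarce, with 9 of 21 tested, of which 2 rose and 3 fell (1 and 1 with a filter of 1 CPM, which tests fewer genes). Cd5, the highest of them, fell from 22, 22.7 and 23.0 to 13 and 8.07 (-1.10 ± 0.22). Cd4 had no count in sgScr and 0.837 and 1.17 in sgTgfbr2, and granzyme A, Gzma, rose from 0, 0.0512 and 0.191 to 12.1 and 9.43 (7.03 ± 0.54). The globins Hba-a1, Hba-a2, Hbb-bs and Hbb-bt had no count, which for near-identical copies is uncertain. The erythroid enzyme Alas2 gave 8.95, 11.5 and 10.2 against 9.89 and 4.18 and passed only without sgTgfbr2 replicate 1 (-1.29).

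**Figure D3:**
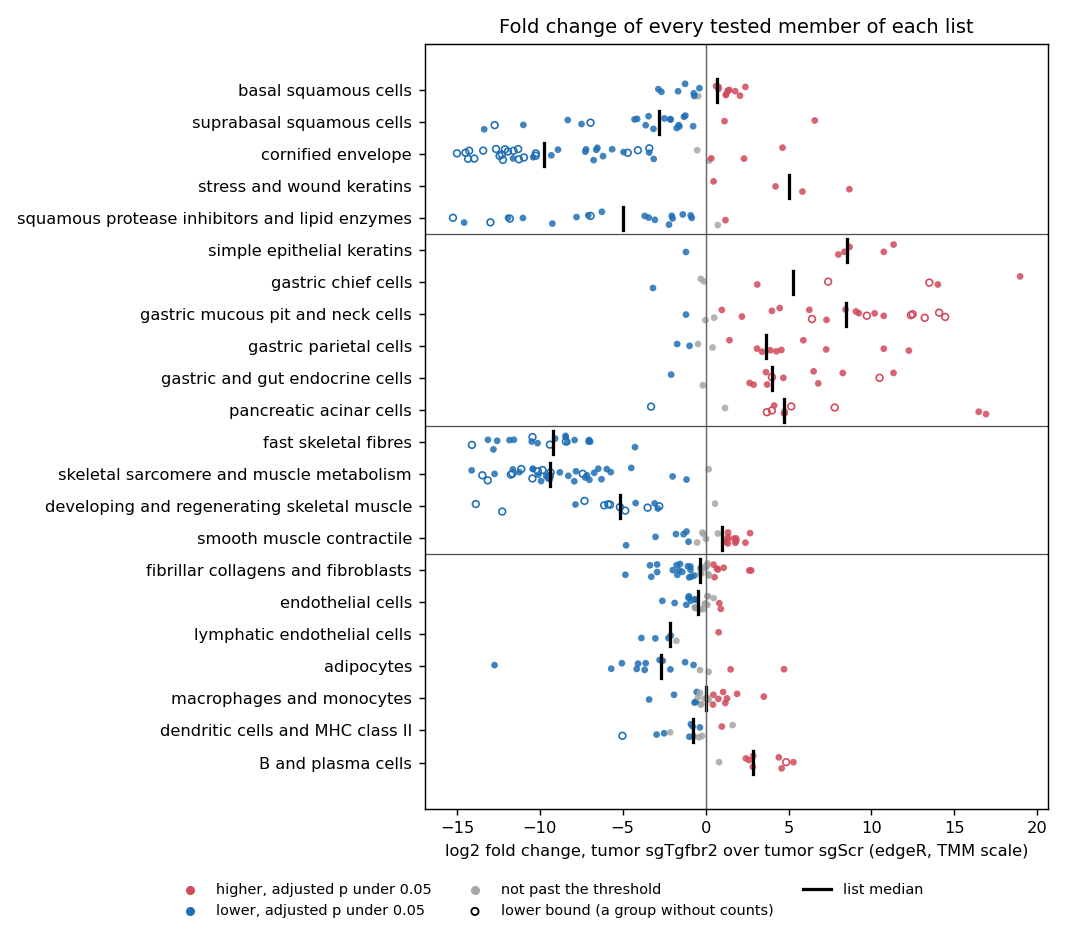
Log2 fold change (sgTgfbr2 over sgScr, TMM scale) of every tested member of 22 lists, with list medians as black bars. Red points rose, blue points fell and grey points did not pass an adjusted p of 0.05 by edgeR; open circles are genes without a count in 1 group, placed at their lower bound. The fast skeletal fibre genes lie wholly below 0, while smooth muscle, fibroblast, endothelial and macrophage genes lie on both sides.

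The labels describe epithelial organoids, and other tumor organoids of the series allow the levels to be set side by side. No test was made, since those tables were deposited separately. The vehicle-treated libraries were labelled with the same genotype and tumor stage as sgTgfbr2. In CPM of the library total, the fast fibre list summed to 32.7 to 35.0 there, beside 35.0 and 32.2 CPM in sgTgfbr2. The suprabasal list summed to 2936 to 2958 (15349 and 15556 CPM in sgTgfbr2). The chief cell list summed to 192 to 196 (29973 and 26976 CPM in sgTgfbr2). The mucous list summed to 139 to 142 (4735 and 4671 CPM in sgTgfbr2). The fibroblast list summed to 411 to 435, the endothelial list to 18.7 to 23.7 and the macrophage list to 76.7 to 86.1, each lower than in any of the 5 libraries. The proliferation list summed to 5554 to 5626 CPM in the vehicle libraries, and to 779, 807 and 823 CPM in sgScr and 1209 and 1228 CPM in sgTgfbr2.

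Genes of the TGF-beta pathway both rose and fell. Of 15 ligand and latency genes tested (17 in the table), 9 rose and 3 fell, with a median log2 fold change of 1.81. The ligand Tgfb1 rose from 15.9, 17.0 and 14.6 to 86.2 and 74.6 normalised CPM (2.34 ± 0.15, edgeR adjusted p = 1.16e-11), while Tgfb2 (11.1, 12.0 and 15.5 against 12.3 and 10.1) and Tgfb3 (21.7, 19.1 and 18.7 against 14.7 and 16.5) did not pass. Thrombospondin 1, Thbs1, which can release TGF-beta from its latent form, stood at 58.1, 58.5 and 58.0 normalised CPM in the sgScr libraries and 390.4 and 380.2 in the sgTgfbr2 libraries (2.73 ± 0.12). The latent binding protein Ltbp3 rose (54.3, 38.0 and 40.6 against 158 and 152, 1.81 ± 0.15) and Ltbp4 fell (308, 218 and 239 against 171 and 183, -0.52 ± 0.14), though not past the threshold with library totals (-0.24). Myostatin, Mstn, a ligand made by skeletal muscle, fell (9.18, 9.43 and 9.73 against 0.345 and 0, -5.73 ± 0.55).

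Of 20 receptor and Smad genes, all tested, 8 rose and 6 fell, with a median log2 fold change of 0.29. Over all genes tested, 29.8% rose and 30.5% fell, and the counts of so short a list are near these shares. The type I receptor Tgfbr1 stood at 25.6, 27.5 and 29.7 normalised CPM in the sgScr libraries and 59.4 and 71.4 in the sgTgfbr2 libraries (1.25 ± 0.15, edgeR adjusted p = 3.14e-07), in the direction opposite to Tgfbr2. The coreceptor Tgfbr3 (-0.81 ± 0.15), the endothelial receptors Acvrl1 (-1.0 ± 0.21) and Eng (-0.62 ± 0.17) and the activin receptor Acvr2a (-0.68 ± 0.18) fell. With library totals Eng (-0.33) and Acvr2a (-0.39) did not pass. Smad3 gave 42.0, 39.3 and 43.1 against 46.4 and 56.0 normalised CPM and did not pass (log2 fold change 0.30 ± 0.15, adjusted p = 0.0840), nor did Smad2 (49.1, 51.0 and 56.9 against 56.8 and 55.9, 0.11 ± 0.14, adjusted p = 0.530). With library totals both passed (0.59 for Smad3 and 0.39 for Smad2), and Smad3 passed without sgTgfbr2 replicate 1 (0.43). The shared partner Smad4 rose (68.1, 66.2 and 74.4 against 104 and 118, 0.68 ± 0.13), as did the inhibitory Smads, Smad6 (1.82 ± 0.25) and Smad7 (8.95, 7.33 and 8.65 against 18.3 and 18.1, 1.13 ± 0.21). The feedback genes Pmepa1 (28.7, 25.1 and 26.8 against 147 and 134, 2.39 ± 0.14), Tgif1 (1.99 ± 0.15) and Skil (0.86 ± 0.14) and the ubiquitin ligase Smurf1 (1.37 ± 0.14) rose. The Smad anchor Zfyve9 fell from 40.8, 39.1 and 37.8 to 5.95 and 11.9 (-2.13 ± 0.23). Counts of a transcript do not measure phosphorylated Smad2 or Smad3.

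Of 28 genes known as TGF-beta targets, all tested, 20 rose and 5 fell, with a median log2 fold change of 1.52 against -0.02 over all genes. Connective tissue growth factor, Ctgf, stood at 56.8, 62.0 and 63.5 normalised CPM in the sgScr libraries and 332 and 319 in the sgTgfbr2 libraries (2.42 ± 0.13, edgeR adjusted p = 2.02e-13) and the BMP-responsive factor Id3 at 21.2, 22.8 and 16.3 against 133 and 113 (2.61 ± 0.16). The cell cycle inhibitor Cdkn1a fell (251, 215 and 213 against 122 and 112, -0.95 ± 0.13), and fibronectin, Fn1, did not pass (262, 216 and 240.1 against 264 and 276). With library totals Fn1 passed (0.46) and 2 targets were lower in place of 5, and 3 were without sgScr replicate 1 or either sgTgfbr2 library. Acta2 and Tagln stand on this list and on the smooth muscle list, and Col1a1 and Fn1 on the fibroblast list. Smad7, Skil, Pmepa1 and Tgif1, counted here as rising, were also counted so on the receptor and Smad list. Cdkn2b stands among the engineered loci as well, and other rising targets stand on the ligand and latency list. The counts of these pathway lists are therefore not independent. Beside these targets, 11 of 22 smooth muscle genes rose. The part of stromal and glandular RNA in the pathway's differences was not tested.

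**Figure D4:**
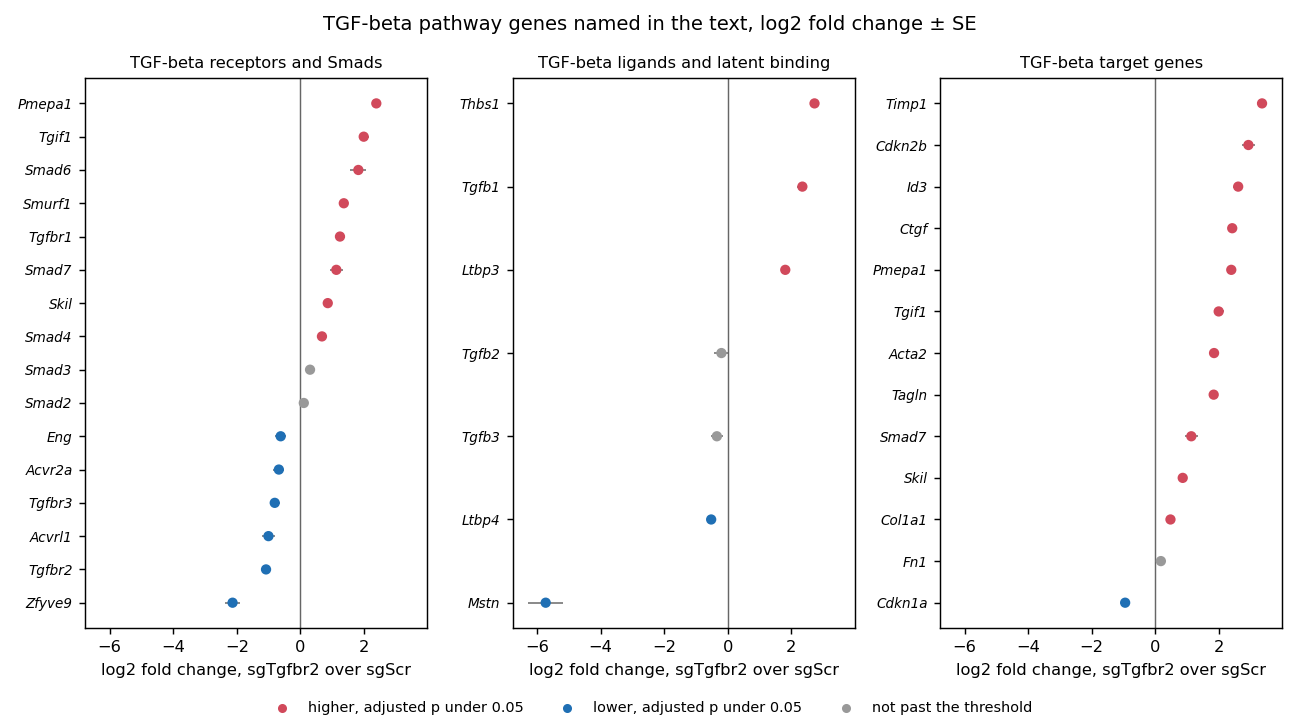
Log2 fold change ± SE of the TGF-beta receptors and Smads, ligands and latency genes, and target genes named in the text, sgTgfbr2 over sgScr, from edgeR. Red rose, blue fell and grey did not pass. Tgfbr2 (-1.08) lies near the bottom of the receptors, with Tgfbr1 (1.25) among those that rose. The target genes shown are red except Fn1 and Cdkn1a, and some of them were chosen after their values were seen. Of the full list of 28 targets, 20 rose and 5 fell, and of those 5 only Cdkn1a is shown.

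Growth and stress programs gave mixed counts. Of 32 proliferation genes, 16 rose and 8 fell (median 0.53). The replication clamp Pcna rose (65.8, 83.3 and 75.4 against 134 and 126 normalised CPM, 0.80 ± 0.14, edgeR adjusted p = 2.92e-05), as did the 6 replication helicase genes Mcm2 to Mcm7. Mitotic genes lay on both sides: Cdk1 (24.8, 32.0 and 25.6 against 55.1 and 42.8, 0.83 ± 0.17) and Plk1 (14.3, 12.5 and 13.1 against 33.6 and 25.8, 1.16 ± 0.19) rose, while Top2a (102, 104 and 114 against 50.2 and 52.3, -1.06 ± 0.14) and Mki67 (84.1, 76.4 and 76.8 against 54.7 and 55.8, -0.52 ± 0.14) fell. With library totals Mki67 did not pass (-0.23), and 4 proliferation genes were lower in place of 8. Of 25 genes of ribosome biogenesis and other MYC targets, 9 rose and 4 fell (median 0.22), and ornithine decarboxylase, Odc1, rose from 53.8, 54.2 and 57.2 to 295 and 289.9 (2.41 ± 0.13). Of 20 p53 targets, 4 rose and 7 fell (median 0.02). Library totals gave 18 higher and 1 lower MYC target and 8 higher p53 targets. Of 29 nuclear genes of the respiratory chain, 3 rose and 18 fell (5 and 10 with library totals, 0 higher without sgTgfbr2 replicate 1; median -0.45), Atp5b at 1114, 1133 and 1058 against 737 and 707 (-0.61 ± 0.12). The respiratory chain list summed to 6531, 7327 and 6775 CPM of the library total in sgScr and 7074 and 6341 CPM in sgTgfbr2, and the groups overlapped. The part of skeletal muscle RNA in these differences was not tested.

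Of 26 interferon-stimulated genes tested (27 in the table), 8 rose and 12 fell, with the antiviral enzyme Oas1a at 54.9, 53.1 and 49.5 against 2.85 and 3.55 normalised CPM (-4.03 ± 0.20) and Irf7 at 48.7, 44.3 and 36.4 against 85.3 and 81.5 (0.95 ± 0.15). Of 20 matrix remodelling genes tested (21 in the table), 15 rose and 3 fell, with a median of 2.35. The membrane protease Mmp14 stood at 68.7, 56.3 and 62.9 normalised CPM in the sgScr libraries and 257 and 260.4 in the sgTgfbr2 libraries (2.05 ± 0.13, edgeR adjusted p = 6.85e-12), tenascin C, Tnc, at 7.31, 8.10 and 8.33 against 88.9 and 93.9 (3.53 ± 0.16) and osteopontin, Spp1, at 4.93, 7.22 and 7.25 against 124 and 121 (4.24 ± 0.17). The inhibitor Timp2 fell (433, 398 and 386 against 141 and 129, -1.59 ± 0.13) where Timp1 rose (14.1, 14.5 and 12.8 against 159 and 125, 3.36 ± 0.15). Of 26 secretory pathway genes, 5 rose and 7 fell (14 and 4 with library totals; median 0.07), with protein disulfide isomerase, P4hb, at 1992, 2035 and 2038 against 639 and 591 (-1.72 ± 0.13).

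The most abundant genes show the same division. Beside squamous and muscle genes and the elongation factor Eef1a1, the 10 highest genes of sgScr held Ada, adenosine deaminase, which the mouse upper digestive epithelium is known to make in quantity. It stood at 9166, 9251 and 8473 normalised CPM in the sgScr libraries and 6.0 and 4.42 in the sgTgfbr2 libraries (-10.75 ± 0.22, edgeR adjusted p = 3.62e-20). The 10 highest of sgTgfbr2 held Pgc, Clps, Ltf, the keratins Krt6a, Krt13 and Krt14, Eef1a1, and 3 further genes: Gsto1, a glutathione transferase (1302, 1429.6 and 1315 against 15259 and 13399.9, 3.41 ± 0.13), the membrane-binding annexin Anxa1 (772, 931 and 902 against 9568 and 9126, 3.43 ± 0.13) and the surface antigen Psca (28.9, 25.6 and 27.6 against 6759.9 and 5333, 7.79 ± 0.16). Outside the lists, the genes with the highest fold changes included the membrane mucins Muc4 (229 and 417 in sgTgfbr2, at least 5705-fold higher) and Muc20 (at least 1343-fold higher), the mucosal scavenger protein Dmbt1 (169.9 and 183, at least 3111-fold higher), the calcitonin-related peptide Calcb (0.113, 0 and 0 against 486 and 446, 12319.8-fold higher (95% counting interval 3410.5 to 101729)), and Trim50 (at least 435-fold higher), known from parietal cells. Those with the lowest included the antimicrobial defensin Defb4 (666, 893 and 795 in sgScr, at least 10741-fold lower), Bpifa5 (at least 6617-fold lower), the carboxypeptidase Cpa4 (315, 275 and 272, at least 3918-fold lower), the amino acid transporter Slc6a19 (at least 1753-fold lower) and Smtnl1, a muscle protein (102, 93.5 and 96.4, at least 1326-fold lower). These had no count on the other side unless values for both are given, and such bounds and intervals cover counting error only.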

How the data were processed

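RNA was sequenced from samples labelled as mouse esophageal organoids. Reads were aligned with STAR 2.6.0a to mm10, and DESeq2 1.26.0 was used, per the submitters' processing notes; the sources used here name no counter, strand setting or gene annotation. The deposited values used are raw read counts per gene, 1 column per library. The log2 fold changes and adjusted p-values of the authors' deposited table were read for a count of its calls only. The authors' 18 columns of normalised values were not used.

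Counts of the 5 tumor libraries were filtered (filterByExpr, minimum count 10), scaled by TMM and tested with edgeR 4.0.16 (R 4.3.3; quasi-likelihood F test, Benjamini-Hochberg, threshold 0.05). The SE is the log2 fold change divided by the square root of F. A group without counts was given a floor of 3 counts over the group, and intervals are exact Poisson limits at 95%. TPM used GENCODE M21 exon lengths, which 95.6% of gene names matched. Alternatives were library totals, DESeq2 1.42.0 size factors and Wald test, TMM without the listed genes, limma-voom (limma 3.58.1), 2 other filters, a fold threshold, a replicate block and leaving out each library. The fit was tested on simulated counts. Libraries of 1 group differed by more than sampling noise (chi-square per degree of freedom 9.91 to 17.9), so none was treated as 1 library deposited again, which does not show that they were separate cultures. No sample was dropped or imputed. In the table, 27 gene names are dates, as a spreadsheet writes them, and were left as they stand.

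The members and lists were chosen with earlier results of these data known. Named genes were the engineered loci, TGF-beta receptors and Smads, up to 6 genes of highest mean CPM per cell type list and 3 per pathway list, the 10 most abundant genes of each group, and the 10 highest and lowest fold changes outside the lists (at least 5 CPM, groups apart). Other genes were chosen after their values were seen: Adipoq, Alb, Alox12b, Barx1, Barx2, Cdk1, Cldn18, Clec3b, Col12a1, Ctgf, Dpt, Fbxo32, Fn1, Gast, Gata4, Grhl3, Hnf4a, Hrnr, Id3, Itga6, Itgb4, Ivl, Lama3, Lamb3, Lox, Lrrn4, Mal, Mcm2 to Mcm7, Mki67, Mstn, Muc6, Myf5, Myh11, Myh3, Myod1, Myog, Nos1, Oas1a, Odc1, Ovol1, Pax7, Pax9, Pdx1, Pi16, Plk1, Sox2, Spp1, Sprr2d, Tchh, Tgfb1, Tgfb2, Tgfb3, Tgm1, Timp1, Tnc, Tnni3, and the Hox and T-box genes. A few measured genes are not reported here by name.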

Additional observations from a re-analysis of the deposited data

How the results depend on the processing

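Of 220 named genes, 192 kept their direction and their side of the threshold under every alternative scaling, tool, filter, block and left-out library (the fold threshold was run for the counts over all genes only), and the tool (DESeq2's Wald test, 4299 higher and 4538 lower; limma-voom, 4649 and 4689), DESeq2 size factors (4497 and 4605), TMM without the listed genes (4468 and 4626), no filter (4553 and 4729) and a filter of 1 CPM in 2 libraries (4408 and 4480) moved the counts of calls by less than 1.5 times. Asking also for a log2 fold change of at least 1 left 2499 genes higher and 2927 lower, of 4492 and 4603. Library totals gave 64.3% of calls higher in place of 49.4%, and were the setting under which most list counts changed. With TMM-scaled library sizes the log2 ratio of summed list levels, sgTgfbr2 over sgScr, went from -2.32 to -2.60 for the squamous lists, from 4.65 to 4.37 for the glandular, from -3.22 to -3.51 for the muscle and from 0.54 to 0.25 for the stromal lists. Without the highest gene of each sum these ratios were -1.96, 3.87, -2.87 and -0.20, the last with its direction turned (Ltf left out). Directions also turned for genes that did not pass: C1qc, -0.059 with all libraries, was 0.22 with library totals, 0.067 without sgScr replicate 1 and between -0.30 and 0.15 with any 1 library left out, the highest without sgTgfbr2 replicate 2. Myc ranged from -0.046 without sgTgfbr2 replicate 2 to 0.74 without sgTgfbr2 replicate 1. With library totals Rab3d was 0.19 and Tgfb2 0.080.

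Replicate numbers 1 and 2 occur in both groups, and no label says that they pair libraries. Across genes, the deviations of same-numbered libraries from their group means had r = 0.0027 for number 1 and -0.159 for number 2. With the replicate number as a block, 3739 genes were higher and 3868 lower. The block left C1qb, Col1a1, Col3a1, Hopx, Krt6b, Tgm1 and Trp63 short of the threshold, and gave 4 lower MHC class II and dendritic genes in place of 8, 3 lower TGF-beta targets in place of 5 and 1 higher gene of Schwann cells and neurons in place of 4. Depth limits the scarce glandular, T cell and endocrine genes, of which many had too few counts to test.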

Other observations

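Markers of nerve support cells and of the outer lining of the gut wall moved unevenly. Of 19 tested genes of Schwann cells and neurons (25 in the table), 8 fell and 4 rose. The 4 that rose became 2 without any 1 of the sgScr libraries, and the 8 that fell became 5 with library totals. Nos1, the nitric oxide synthase of enteric neurons, stood at 13.4, 10.1 and 9.60 against 0.689 and 0.194 normalised CPM in sgScr and then sgTgfbr2 (log2 fold change -4.63 ± 0.43, edgeR adjusted p = 3.89e-09). Of 8 mesothelial genes, 3 rose and 4 fell. Mesothelin, Msln, rose from 7.42, 7.28 and 9.86 to 183 and 166 (4.42 ± 0.16), while the mesothelial genes Upk3b (11.8, 9.94 and 8.14 against 0.492 and 0.632, -4.13 ± 0.38) and Lrrn4 (3.06, 4.92 and 3.18 in sgScr, at least 51.5-fold lower) fell. Of 11 mast cell and eosinophil genes tested (18 in the table), 5 rose and 2 fell (1 without sgScr replicate 2, sgScr replicate 3 or sgTgfbr2 replicate 1), the receptor Kit from 0.793, 2.36 and 1.91 to 24.9 and 29.4 (4.0 ± 0.29). Histidine decarboxylase, Hdc, made by mast cells and by gastric endocrine cells, rose from 1.59, 2.1 and 3.12 to 15.7 and 17.8 (2.89 ± 0.28).

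Lung, liver and thyroid lists summed to little in all 5 libraries, at 11.2 to 18.7, 25.8 to 132.8 and 20.7 to 25.8 CPM of the library total. The apolipoprotein Apoa1 rose from 0.340, 1.33 and 1.53 to 57.6 and 34.8 normalised CPM (5.44 ± 0.32, edgeR adjusted p = 1.78e-12) and transthyretin, Ttr, from 0.227, 0.307 and 0.191 to 13.2 and 12.2 (5.66 ± 0.39), while albumin, Alb, was at 2.38, 5.07 and 6.74 against 1.23 and 0.389 (-2.54 ± 0.55).

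Patterning genes were chosen as a group after their values were seen. Of 20 Hox genes tested (39 in the table), 4 rose and 6 fell, a smaller share than the 60.3% called over all genes. Hoxc8 stood at 1.13, 1.49 and 1.02 normalised CPM in the sgScr libraries and 32.4 and 31.7 in the sgTgfbr2 libraries (4.71 ± 0.24, edgeR adjusted p = 1.81e-13) and Hoxc6 at 6.52, 4.97 and 6.36 against 23.6 and 15.4 (1.71 ± 0.24), while Hoxc4 gave 25.4, 20.3 and 26.2 against 27.6 and 27.0 and did not pass. Hoxd8 fell from 12.0, 16.3 and 14.3 to 1.97 and 0.875 (-3.32 ± 0.33) and Hoxa2 from 7.76, 6.87 and 12.9 to 1.03 and 1.17 (-3.05 ± 0.38). Of 9 T-box genes tested (17 in the table), 7 fell. Tbx1 stood at 63.6, 64.2 and 65.8 normalised CPM in the sgScr libraries and 1.57 and 0.535 in the sgTgfbr2 libraries (-5.93 ± 0.27), Tbx3 at 22.2, 23.9 and 22.1 against 1.97 and 2.09 (-3.48 ± 0.25) and Tbx15 at 37.5, 40.9 and 38.8 against 0.0984 and 0. With 2 counts over the sgTgfbr2 libraries, Tbx15 was 800.3-fold lower (95% counting interval 222 to 6608). The Y-linked genes Ddx3y, at 58.2, 73.2 and 84.5 against 53.2 and 62.2, and Eif2s3y, at 64.6, 80.6 and 79.2 against 46.0 and 36.9, were present in every library, and Xist did not exceed 1.22 normalised CPM. Of 4 Y-linked genes tested, 3 fell, among them Eif2s3y (-0.85 ± 0.16, edgeR adjusted p = 7.09e-05). Ddx3y did not pass (-0.32 ± 0.16), though it did without sgScr replicate 1 (-0.46).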
